A study of Mus musculus with 15 samples.

Results

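The genes described here were 10 antioxidant genes that the transcription factor NRF2 is known to switch on, apart from heme oxygenase. Gclc, Gclm and Slc7a11 supply glutathione, Gsr, Txnrd1, Srxn1 and Prdx1 keep glutathione, thioredoxin and peroxiredoxin in working order, G6pdx supplies NADPH, and Akr1b8 and Nqo1 reduce reactive carbonyls and quinones. They were chosen by name from knowledge of the pathway, their symbols were matched to mouse Ensembl identifiers, and all 10 were among the 19839 genes tested of 57186 in the count table. The cells were RAW 264.7, a mouse macrophage line that grew from a tumor induced by a leukemia virus. The Control group was left nontreated and 4 groups were given silica nanoparticles for 6 h at doses chosen as the highest nontoxic ones: nonporous SNP100 (100 nm nominal diameter) at 50 µg/mL, nonporous SNP50 (50 nm) at 25 µg/mL, mesoporous MSNP (100 nm) at 200 µg/mL and hollow mesoporous HMSNP (100 nm) at 200 µg/mL. Each group had 3 libraries, and no source says whether these came from separate cultures, so p-values measure the spread between these libraries.

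NRF2, encoded by Nfe2l2, is held in the cytoplasm by KEAP1, which passes it to the proteasome. When cysteines of KEAP1 are oxidized or modified by electrophiles, NRF2 escapes, enters the nucleus, pairs with a small MAF protein and binds antioxidant response elements near its target genes, where BACH1 acts as a competing repressor. In macrophages this program is known to limit oxidative damage after particles are engulfed, and several of its targets are also driven by other factors, such as ATF4 at Slc7a11.

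Total counts lay between 29369934 and 42617812 per library. The macrophage markers Adgre1, Csf1r, Cd68, Lyz2, Itgam, Ptprc, Mertk and Fcgr1 were all detected, and their summed level was between 15010 and 18830 CPM (counts scaled by library total and TMM factor) in Control, between 12650 and 13600 with MSNP and between 14530 and 15900 elsewhere. The sum mainly follows Lyz2, which averaged 12178 CPM in Control beside 2798 for Csf1r and 957 for Cd68, so it says little on the other markers. Of 10 markers of other cell types, 7 did not reach the count filter and the other 3 summed to at most 0.574 CPM in any library. Control replicate 3 stood apart from the rest: relative to the mean of all libraries, the shortest 10% of 10652 expressed genes had a median log2 level of 0.58 there and the longest 10% −0.76, while the other 14 libraries lay between −0.18 and 0.26. Calls of the 10 genes that changed without this library are named beside the result. Each group had its own number prefix in the labels, of unstated meaning, so what it stands for cannot be told apart from treatment. In these bulk samples, fewer cells expressing a gene and less RNA per cell cannot be told apart either.

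The promoters of 5 of the genes held a motif of the factors named above within 300 bases before the annotated start, and they are shown so that the later differences between these genes can be read beside their sequence. The motifs searched on both strands were the core antioxidant response element TGACNNNGC, the amino acid response element TGATGCAA bound by ATF4, and the AP-1 site TGACTCA, whose letters can overlap the antioxidant response element. Each line gives the 120 bases before the start of the canonical GENCODE transcript, 5′ to 3′ on the strand of the gene, with matches in capitals. The build is GRCm39, and the windows are chr3:122039006-122039125 (plus strand) for Gclm, chr10:82694893-82695012 (plus) for Txnrd1, chr4:116542621-116542740 (plus) for Prdx1, chr2:151947324-151947443 (plus) for Srxn1 and chr3:50398064-50398183 (minus) for Slc7a11.
Gclm: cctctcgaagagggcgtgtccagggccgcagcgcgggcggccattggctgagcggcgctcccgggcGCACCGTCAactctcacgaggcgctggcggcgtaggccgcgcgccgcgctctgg
Txnrd1: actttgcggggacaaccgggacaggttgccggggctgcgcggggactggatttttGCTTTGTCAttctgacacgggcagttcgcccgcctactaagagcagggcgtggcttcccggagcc
Prdx1: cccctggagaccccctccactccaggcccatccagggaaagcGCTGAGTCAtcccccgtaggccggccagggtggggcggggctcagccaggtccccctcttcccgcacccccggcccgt
Srxn1: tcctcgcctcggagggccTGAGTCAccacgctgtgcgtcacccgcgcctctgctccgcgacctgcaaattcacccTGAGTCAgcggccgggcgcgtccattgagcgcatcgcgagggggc
Slc7a11: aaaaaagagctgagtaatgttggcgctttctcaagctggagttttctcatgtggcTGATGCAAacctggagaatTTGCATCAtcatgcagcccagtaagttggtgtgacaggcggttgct
The antioxidant response element was matched at bases −54 to −46 before the start of Gclm, −65 to −57 of Txnrd1 and −78 to −70 of Prdx1. It stood in 3 of the 10 promoters and in 11.2% of 21770 promoters of protein-coding genes of the same length. The amino acid response element was found at −65 to −58 and again, on the other strand, at −46 to −39 of Slc7a11, the sole promoter among the 10 with a match, against 1.03% of all promoters. AP-1 sites began at −102 and −45 of Srxn1 and at −182 and −76 of Prdx1, the latter overlapping its antioxidant response element, and 4.74% of all promoters had one. A match is a description of these letters, and no match in this window says nothing on elements farther from the start. The search also fixed the letter after TGA as C, so variants of the antioxidant response element with another letter there were not counted. The letters TGAGTCAgc from −45 of Srxn1 differ from the searched motif in that letter alone, so such a variant at Srxn1 was not searched for.

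Levels in Control per kilobase of the canonical transcript set the scale on which the genes can be compared. Prdx1, an abundant peroxidase that removes hydrogen peroxide, had the highest level at 432 ± 122 CPM per kb (SD, n = 3), followed by Txnrd1 at 137 ± 27.4 and Akr1b8 at 91.2 ± 9.28. G6pdx (61.3 ± 3.62), Gsr (60.7 ± 2.03), Gclm (59.7 ± 7.01) and Gclc (57.1 ± 10.3) followed, and these 4 did not differ beyond their spread. Srxn1 had 21.8 ± 1.51 CPM per kb and Slc7a11 11.8 ± 5.84. Nqo1, a quinone reductase that is a common reporter of NRF2 activity in other cells, was close to silent here at 0.335 ± 0.0981 CPM per kb. Its counts were 19 to 48 per library and its level 0.540 to 1.25 CPM, while each of the other genes had at least 1529 counts in every library.

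**Figure D1:**
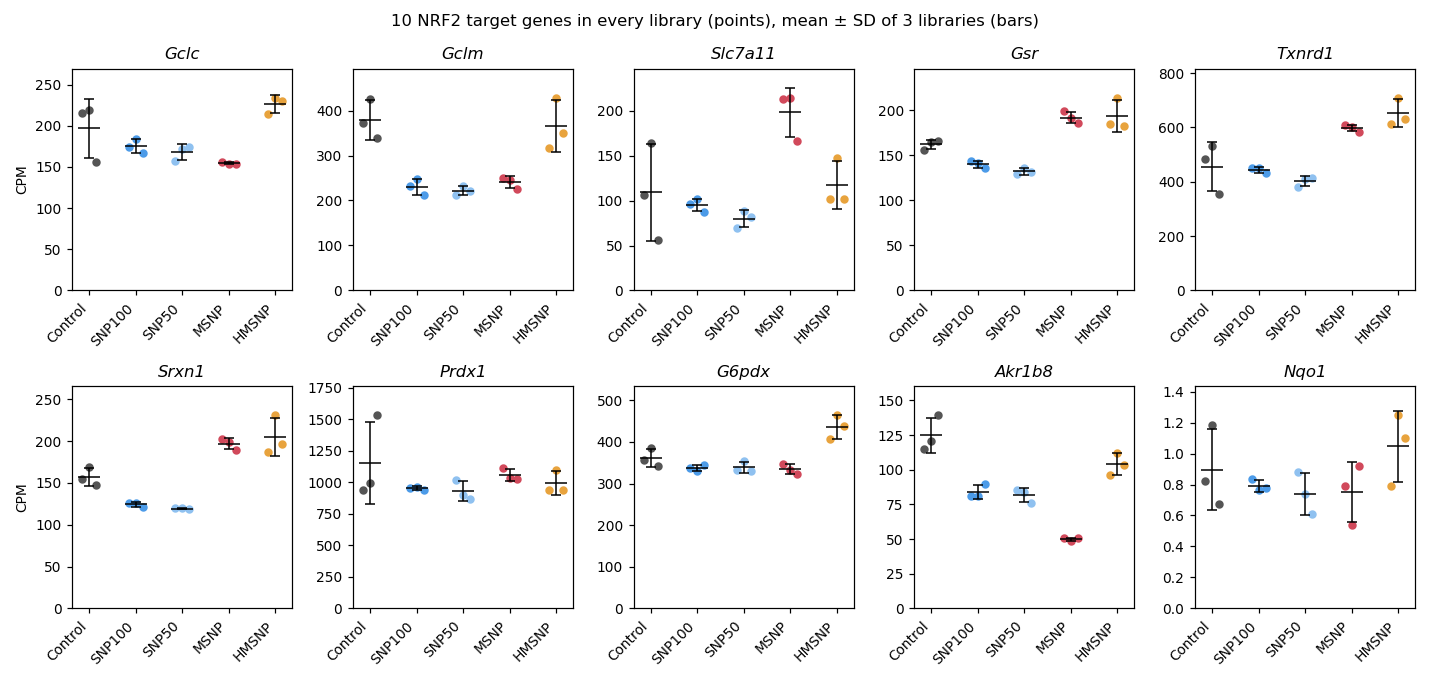
Level of each of the 10 genes in CPM, counts scaled by library total and TMM factor (vertical axis, starting at 0), in the Control, SNP100-, SNP50-, MSNP- and HMSNP-treated groups. Points are single libraries and bars the mean ± SD of 3 libraries. Akr1b8 lay lowest in the MSNP-treated group (48.7 to 50.7 CPM), Gclm was lower than Control in all groups but HMSNP, and Srxn1 and Gsr were higher than Control after both porous particles.

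Gclm encodes the modifier subunit of glutamate-cysteine ligase, the rate-limiting enzyme of glutathione synthesis. The gene (ENSMUSG00000028124) lies at chr3:122039126-122065061 on the plus strand. Its level was 372, 427 and 338 CPM in the Control libraries. It was 233, 247 and 211 CPM after SNP100, 212, 233 and 221 after SNP50, 251, 246 and 226 after MSNP, and 316, 429 and 351 after HMSNP. Every library of SNP100, SNP50 and MSNP was below every Control library, while HMSNP overlapped Control. The log2 fold change against Control was −0.72 (SE 0.11, adjusted p = 0.00484) for SNP100, −0.77 (SE 0.11, adjusted p = 0.00284) for SNP50 and −0.65 (SE 0.11, adjusted p = 0.000374) for MSNP by the quasi-likelihood test of edgeR, adjusted after Benjamini-Hochberg over all 19839 genes, which is the test behind every adjusted p given here. These are levels 1.64, 1.71 and 1.57 times lower than in Control. For HMSNP the difference was −0.05 (95% interval −0.29 to 0.18, adjusted p = 0.793 by edgeR's quasi-likelihood test).

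Gclc encodes the catalytic subunit of the same enzyme (ENSMUSG00000032350, chr9:77661797-77701770, plus strand), and its pattern differed in part from that of Gclm. It had 215, 220 and 156 CPM in Control, where replicate 3 was the low library. It had 174, 184 and 167 CPM after SNP100, 157, 172 and 175 after SNP50, 156, 154 and 154 after MSNP and 214, 234 and 230 after HMSNP. The MSNP libraries lay below the Control libraries 1 and 2 and next to replicate 3, so the groups overlapped. The log2 fold change of −0.35 (SE 0.10) for MSNP passed the test (edgeR's quasi-likelihood adjusted p = 0.0236), but was called in 16 of 23 alternative analyses. SNP100 (−0.17, interval −0.39 to 0.05), SNP50 (−0.23, interval −0.45 to −0.01) and HMSNP (0.20, interval −0.02 to 0.42) did not pass it. Without Control replicate 3, Gclc was also called lower for SNP100 (−0.32) and SNP50 (−0.38).

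Slc7a11 encodes the transport subunit of the cystine-glutamate exchanger xCT, which brings in the cysteine for glutathione (ENSMUSG00000027737, chr3:49846975-50398070, minus strand). It was the most scattered of the well-expressed genes in Control, with 107, 164 and 56.5 CPM. It had 96.8, 101 and 87.8 CPM after SNP100, 69.4, 88.6 and 81.9 after SNP50, 213, 215 and 167 after MSNP and 102, 148 and 101 after HMSNP. Each MSNP library was above each Control library, the nearest pair being 167 and 164 CPM, and the other groups overlapped Control. For MSNP the log2 fold change was 0.86 (SE 0.27), a level 1.82 times that of Control (edgeR's quasi-likelihood adjusted p = 0.0312). The call was lost without Control replicate 1 or MSNP replicate 1 or 2 and with the 6 libraries of the comparison alone, and the fitted value ranged from 0.56 to 1.28 over the alternatives. For SNP50 the value was −0.45 (interval −1.02 to 0.13, adjusted p = 0.563 by edgeR's test), in the opposite direction, and it was called lower with the length correction (−0.48), without Control replicate 3 (−0.76) and with both (−0.59). For SNP100 it was −0.19 (interval −0.77 to 0.38), called lower with both together. Slc7a11 was also the one gene of the 10 whose promoter held the ATF4-type element shown above.

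Gsr encodes glutathione reductase, which turns oxidized glutathione back to its reduced form with NADPH (ENSMUSG00000031584, chr8:34142551-34188192, plus strand). Its Control libraries were tight at 156, 165 and 166 CPM. It had 143, 142 and 136 CPM after SNP100, 129, 137 and 132 after SNP50, 199, 192 and 186 after MSNP and 185, 214 and 183 after HMSNP. All libraries of the nonporous groups were below Control and all libraries of the porous groups above it. The log2 fold change was 0.24 (SE 0.07, adjusted p = 0.0169) for MSNP, 0.26 (SE 0.07, adjusted p = 0.0411) for HMSNP and −0.29 (SE 0.07, adjusted p = 0.0497) for SNP50 by edgeR's quasi-likelihood test. The SNP50 call stood close to the threshold and held in 6 of 23 alternatives, the HMSNP call in 13 and the MSNP call in 21. For SNP100 the value was −0.21 (interval −0.35 to −0.06, adjusted p = 0.242 by edgeR's test).

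Txnrd1 encodes the cytosolic thioredoxin reductase, a selenoprotein that recharges thioredoxin (ENSMUSG00000020250, chr10:82669785-82733546, plus strand). It had 483, 530 and 354 CPM in Control, replicate 3 again being low. It had 449, 452 and 432 CPM after SNP100, 381, 409 and 415 after SNP50, 608, 601 and 585 after MSNP and 612, 710 and 632 after HMSNP. Both porous groups lay wholly above Control and the nonporous groups lay within its range. The log2 fold change was 0.39 (SE 0.11, adjusted p = 0.0181) for MSNP and 0.52 (SE 0.11, adjusted p = 0.014) for HMSNP by edgeR's quasi-likelihood test, or 1.31 and 1.43 times the Control level. Without Control replicate 3 the values were 0.25 and 0.36, both called. SNP100 (−0.04, interval −0.27 to 0.20) and SNP50 (−0.18, interval −0.42 to 0.06) did not pass the test, although Txnrd1 was called lower for SNP50 (−0.34) when Control replicate 3 was left out.

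Srxn1 encodes sulfiredoxin, which repairs overoxidized peroxiredoxins (ENSMUSG00000032802, chr2:151947436-151957687, plus strand). Its level was 155, 169 and 147 CPM in Control. It was 126, 126 and 121 CPM after SNP100, 119, 120 and 119 after SNP50, 203, 199 and 189 after MSNP and 187, 231 and 197 after HMSNP. As with Gsr, the nonporous groups were wholly below Control and the porous groups wholly above it. It rose after MSNP by 0.33 (SE 0.08, adjusted p = 0.0059) and after HMSNP by 0.38 (SE 0.08, adjusted p = 0.00923) on the log2 scale, and it was lower after SNP50 at −0.40 (SE 0.08, adjusted p = 0.0191), by edgeR's quasi-likelihood test. For SNP100 the value was −0.34 (interval −0.50 to −0.17, adjusted p = 0.059 by edgeR's test), and it was called lower in 6 of 23 alternatives, among them without Control replicate 3 (−0.38). When the trend of each library with gene length was removed, the Srxn1 values were 0.09 for MSNP and 0.08 for HMSNP and were not called. With that correction and without Control replicate 3 they were 0.28 each and both were called.

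Prdx1, whose product passes oxidizing equivalents from peroxides to thioredoxin (ENSMUSG00000028691, chr4:116532123-116558398, plus strand), passed the test in no comparison. Its Control libraries had 938, 997 and 1532 CPM, and the 12 treated libraries lay between 868 and 1118 CPM. Replicate 3 was the high library in Control, the one that stood apart in its length trend. Without that library the MSNP value turned from −0.13 to 0.14 and the HMSNP value from −0.22 to 0.04, neither being called.

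G6pdx encodes glucose-6-phosphate dehydrogenase, the entry enzyme of the pentose phosphate pathway and a main source of the NADPH that Gsr and Txnrd1 use (ENSMUSG00000031400, chrX:73449857-73472819, minus strand). It had 357, 385 and 343 CPM in Control and 406, 464 and 438 CPM after HMSNP, with no overlap. The other 3 groups lay between 324 and 354 CPM. It was higher after HMSNP by 0.27 on the log2 scale (SE 0.07, edgeR's quasi-likelihood adjusted p = 0.0291), a call that was lost without HMSNP replicate 2 or 3, without Control replicate 1, with the length correction (0.06) and with the 6 libraries alone. For MSNP the value was −0.11 (interval −0.25 to 0.03) and did not pass the test. It was called lower in 2 of 23 alternatives, the length correction with all libraries and without Control replicate 3. Ikbkg overlaps G6pdx on the opposite strand with 23.9% of its counts, and the strand setting of the counting is not stated. Ikbkg was not called for HMSNP (log2 fold change −0.14, adjusted p = 0.42 by edgeR's test).

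Akr1b8 encodes an aldo-keto reductase that clears lipid aldehydes (ENSMUSG00000029762, chr6:34331054-34345409, plus strand), and it had the largest change of the 10 genes. It had 115, 120 and 139 CPM in Control. It had 81.0, 81.0 and 89.5 CPM after SNP100, 85.3, 84.1 and 76.2 after SNP50, 50.5, 48.7 and 50.7 after MSNP and 96.0, 112 and 104 after HMSNP. All 4 treated groups were wholly below Control, with MSNP far below the rest. The log2 fold change was −1.32 (SE 0.09, adjusted p = 1.87e-08) for MSNP, a level 2.50 times lower than in Control, −0.57 (SE 0.08, adjusted p = 0.00387) for SNP100 and −0.61 (SE 0.08, adjusted p = 0.00258) for SNP50 by edgeR's quasi-likelihood test. HMSNP gave −0.26 (interval −0.44 to −0.09, adjusted p = 0.0847 by edgeR's test). It was called lower in 2 of 23 alternatives, DESeq2 and without Control replicate 2, which called 15.1% and 25.2% of all genes. Akr1b10, a near copy with 35% of the counts of Akr1b8 between which reads could be split, was not called in any comparison (MSNP log2 fold change −0.23, adjusted p = 0.13 by edgeR's test). Apart from Akr1b10 and Ikbkg, the overlapping or similar genes counted for the 10 had at most 1.07% of the counts of their partner.

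Counted over the 10 genes, the calls for the nonporous particles were all lower. SNP100 had 0 genes higher and 2 lower (Gclm and Akr1b8), where 0.912% of all genes tested were called in either direction and 0.403% were lower. SNP50 had 0 higher and 4 lower (Gclm, Akr1b8, Srxn1 and Gsr), against 1.41% of all genes called and 0.958% lower. All 10 genes had a fitted value below 0 in both comparisons, with a median of −0.20 for SNP100 and −0.30 for SNP50 beside medians of −0.02 and 0.00 over all genes. Gclm, Srxn1, Gsr and Akr1b8 had all 3 libraries below all Control libraries in both comparisons and no gene had them all above, where 7.19% and 7.87% of all genes lay wholly below Control and 5.34% and 6.26% wholly above. Both comparisons share the Control libraries, and Control replicate 3 moved the counts: without it, 4 of the 10 genes were lower for SNP100 and 7 for SNP50, but calls over all genes rose as well, to 5.16% (2.32% lower) for SNP100 and 18.9% (9.3% lower) for SNP50. With the 6 libraries of each comparison alone, no gene of the 10 was called, where edgeR's test called 0 genes of all for SNP100 and 1 for SNP50.

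After MSNP the 10 genes moved in both directions. Slc7a11, Txnrd1, Srxn1 and Gsr rose after MSNP and Akr1b8, Gclm and Gclc fell, against 22.8% of all genes called, 11.8% higher and 11% lower. The median of the 10 genes was −0.12 beside −0.05 over all genes. The 4 risen genes lay wholly above Control and Gclm and Akr1b8 wholly below, while 17% of all genes lay wholly above and 16.2% wholly below. Without MSNP replicate 1 the count went from 7 to 3 and without replicate 2 to 4, and with the 6 libraries of the comparison alone 2 were called, Gclm and Akr1b8. These fits called 17.6%, 17.4% and 13% of all genes. Gclm and Akr1b8 were called lower in 23 of 23 alternatives. Of the 8 macrophage markers 5 also fell after MSNP and 1, Cd68, rose, and their part in these results was not tested.

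After HMSNP, 4 genes rose (Txnrd1, Srxn1, G6pdx and Gsr) and 0 fell, against 5.16% of all genes called, 2.46% higher and 2.7% lower. The median was 0.22 beside −0.04 over all genes. The 4 genes lay wholly above Control and Akr1b8 wholly below, beside 10.9% and 12% of all genes. Without HMSNP replicate 2, which had the highest level of all 10 genes among the HMSNP libraries, no gene of the 10 was called, and none was with the 6 libraries of the comparison alone. These fits called 2.51% and 0.439% of all genes.

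**Figure D2:**
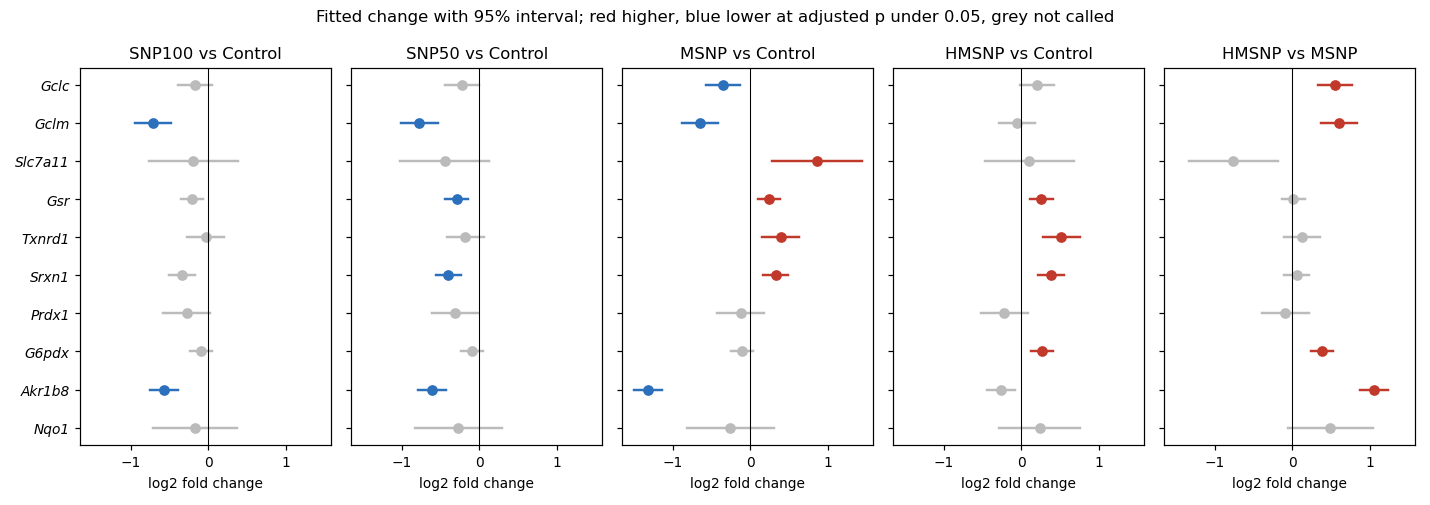
Fitted log2 fold change of each gene (horizontal axis) with its 95% interval in 5 comparisons; red points were higher and blue points lower at an adjusted p under 0.05, and grey points were not called. In the MSNP comparison 4 genes lie to the right of 0 and 3 to the left, and in the comparison of HMSNP with MSNP Akr1b8 lies farthest right at 1.06.

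The porous particles were given at the same dose and nominal diameter, so the hollow mesoporous and the mesoporous form can be set side by side. The paper describes HMSNP as low in density and different in surface composition, so these traits and the hollow form cannot be told apart. Gclm, Gclc, Akr1b8 and G6pdx were higher in the HMSNP- than in the MSNP-treated group and 0 genes were lower, against 20.2% of all genes called and 9.22% higher. The log2 difference was 1.06 for Akr1b8 (SE 0.09, adjusted p = 2.31e-07), 0.60 for Gclm (SE 0.11, adjusted p = 0.000843), 0.55 for Gclc (SE 0.10, adjusted p = 0.0011) and 0.38 for G6pdx (SE 0.07, adjusted p = 0.000556) by edgeR's quasi-likelihood test, with no overlap of libraries in any of the 4. With Txnrd1, 5 genes lay wholly above MSNP and 1, Slc7a11, wholly below, beside 21.6% and 23.7% of all genes. These 4 calls held in 23 of 23 alternatives. The genes that had risen after both particles gave small differences between them, 0.06 for Srxn1 (interval −0.11 to 0.22), 0.12 for Txnrd1 (interval −0.11 to 0.36) and 0.02 for Gsr (interval −0.13 to 0.16). Of these, Txnrd1 was called higher in 2 of 23 alternatives. They were the 6 libraries of the comparison alone and the length correction without Control replicate 3, which called 40.9% and 36.3% of all genes. Slc7a11 was lower in all 3 HMSNP libraries than in all 3 MSNP libraries, at −0.76 (interval −1.34 to −0.18), but its adjusted p of 0.0615 by edgeR's quasi-likelihood test missed the threshold, and 9 of 23 alternatives called it, among them without Control replicate 3 (−0.77).

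MSNP and SNP100 share their nominal diameter but not their dose, so porosity and dose cannot be told apart. Srxn1 was higher after MSNP than after SNP100 by 0.66 (SE 0.08, adjusted p = 1.52e-05 by edgeR's quasi-likelihood test), and Slc7a11 (1.06, adjusted p = 0.0124), Gsr (0.45, adjusted p = 0.000184) and Txnrd1 (0.43, adjusted p = 0.0133) were higher as well by the same edgeR test. The calls of Slc7a11 and Txnrd1 were lost without SNP100 replicate 3 or MSNP replicate 1 or 2, and that of Txnrd1 also without SNP100 replicate 1. Gclc (−0.18, interval −0.40 to 0.04) was called lower without Control replicate 3 (−0.17). Akr1b8 was lower (−0.75, edgeR's adjusted p = 1.16e-05), and Gclm, which both particles lowered against Control, gave 0.06 (interval −0.17 to 0.30). These 5 calls among 10 genes stood against 17.9% of all genes called, 10.4% higher and 7.53% lower. Between SNP50 and SNP100, which differ in diameter and dose, edgeR called 0 of 19839 genes, 867 having an unadjusted p under 0.05. The fitted values of the 10 genes lay between −0.25 for Slc7a11 (interval −0.83 to 0.32) and 0.01 for G6pdx (interval −0.13 to 0.15).

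Ratios of genes within a library show the split without reference to the total, and these pairs were chosen after their values were seen. A library's trend with gene length stays in such a ratio. The canonical transcripts have 7203 bases for Srxn1 and 1369 for Akr1b8, and 2673 for Gsr and 6349 for Gclm. The part of that trend in the ratios was not tested. The log2 ratio of Srxn1 to Akr1b8 counts was 0.43, 0.49 and 0.08 in Control, 0.64, 0.64 and 0.44 after SNP100 and 0.49, 0.51 and 0.64 after SNP50. It was 0.96, 1.04 and 0.93 after HMSNP and 2.0, 2.03 and 1.90 after MSNP. The ratio of Gsr to Gclm was −1.26, −1.37 and −1.03 in Control, −0.70, −0.80 and −0.64 after SNP100, −0.71, −0.77 and −0.75 after SNP50, −0.34, −0.36 and −0.28 after MSNP and −0.77, −1.0 and −0.94 after HMSNP. In both ratios the MSNP libraries stood above all others, which followed from setting a gene called higher after MSNP over one called lower. The ratio of Gclc to Gclm, both called lower after MSNP, was −0.68, −0.68 and −0.55 after MSNP. It was −0.42, −0.43 and −0.34 after SNP100 and −0.79, −0.96 and −1.12 in Control, so MSNP was not highest there.

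**Figure D3:**
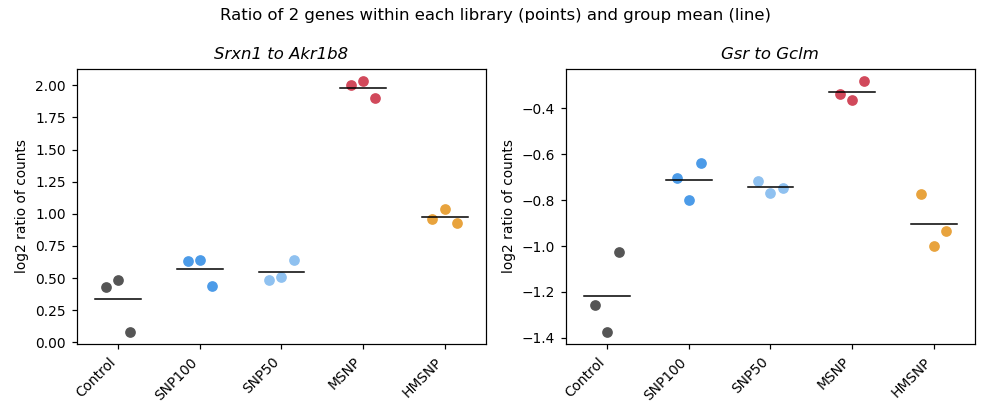
Log2 ratio of the counts of Srxn1 to Akr1b8 (left) and of Gsr to Gclm (right) in each library by group; points are libraries and lines group means. The MSNP libraries had the highest values in both panels, 1.90 to 2.03 on the left.

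Across the 15 libraries the genes moved together unevenly, given here as a description since libraries of a group share their treatment. The closest pair was Srxn1 and Gsr (Pearson r = 0.98), and Txnrd1 was nearest to Srxn1 (0.90). Gclc was nearest to G6pdx (0.85) and Gclm to Gclc (0.79), while Akr1b8 had r = 0.67 with Gclm and −0.59 with Slc7a11. Prdx1 reached at most 0.38. Of 9664 other genes with at least 5 CPM, Wbp1l (0.95), Odc1 (0.95), Cd44 (0.93), Ncs1 (0.93) and Cd36 (0.92) followed the mean standardized level of the 10 genes most closely.

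The regulators of the pathway were then examined as a list of 10 genes. None was called for SNP100 or SNP50, 5 rose and 0 fell after MSNP, where 11.8% of all genes rose, and 1 rose after HMSNP, where 2.46% did. The list medians were 0.03, −0.04, 0.61 and −0.03 for SNP100, SNP50, MSNP and HMSNP, beside −0.02, 0.00, −0.05 and −0.04 over all genes. Nfe2l2, which encodes NRF2 itself, had 191, 194 and 187 CPM in Control, 354, 360 and 345 after MSNP and 220, 230 and 221 after HMSNP. It was 0.89 higher after MSNP on the log2 scale (SE 0.05, adjusted p = 4.96e-09) and 0.23 higher after HMSNP (SE 0.05, adjusted p = 0.017) by edgeR's quasi-likelihood test. Sqstm1, the autophagy receptor p62 that sequesters KEAP1, went from 704 ± 46 to 1224 ± 71.7 CPM after MSNP (0.80, adjusted p = 9.57e-07 by edgeR's test). The small MAF partners Mafk (0.95) and Maff (1.13) and the related factor Nfe2l1 (0.69) rose after MSNP too. Keap1 had 94.9 to 99.0 CPM after MSNP beside 94.1 to 95.8 in Control (0.04, adjusted p = 0.692 by edgeR's test), and Bach1 gave 0.53 (adjusted p = 0.063) with a low Control replicate 3 (23.1 CPM). In the comparison of HMSNP with MSNP, Nfe2l2, Nfe2l1, Maff, Mafk and Sqstm1 were lower and no regulator was higher. Of the 10 targets 4 were higher, beside 11% of all genes lower and 9.22% higher in that comparison. Without Control replicate 3, 4 regulators were called for SNP50 (1 higher, 3 lower), in a fit that called 18.9% of all genes.

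**Figure D4:**
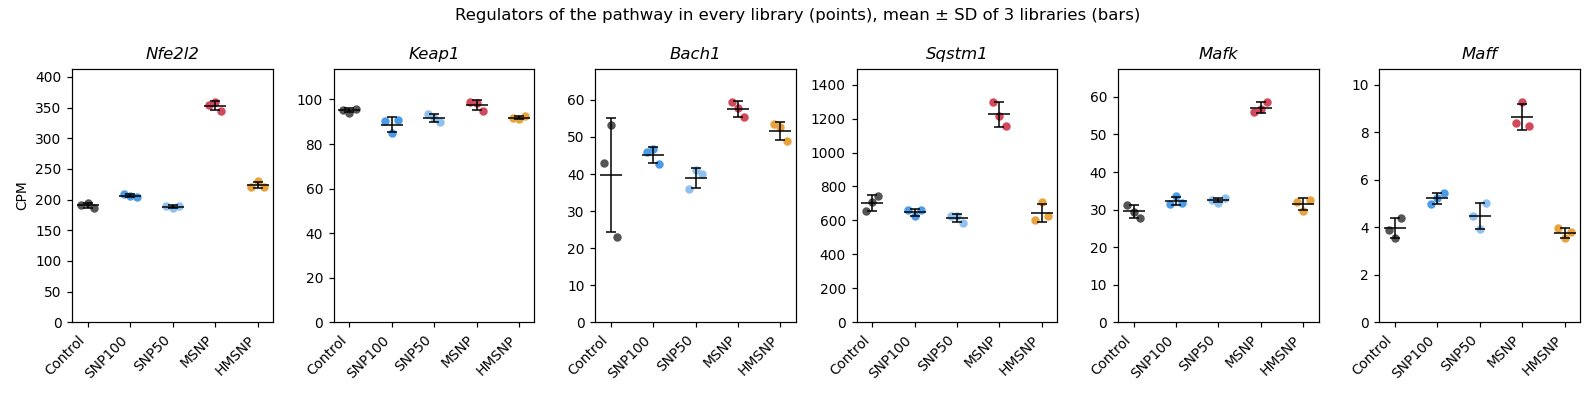
Level of Nfe2l2, Keap1, Bach1, Sqstm1, Mafk and Maff in CPM (vertical axes starting at 0) in each library, with the mean ± SD of 3 libraries per group. Nfe2l2, Sqstm1, Mafk and Maff lie highest in the MSNP-treated group (Nfe2l2 345 to 360 CPM), and Keap1 stays between 84.8 and 99.0 CPM in all libraries.

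The other glutathione genes, a list of 18, gave 0 calls for SNP100, 1 lower for SNP50, 3 higher and 5 lower for MSNP and 1 higher and 3 lower for HMSNP, beside 0.912%, 1.41%, 22.8% and 5.16% of all genes called in these 4 comparisons. Glrx, a glutaredoxin that removes glutathione from proteins, fell after MSNP from 92.6 to 28.8 CPM (−1.68, adjusted p = 2.7e-09) and rose after HMSNP to 120 CPM (0.38, adjusted p = 0.0234), by edgeR's quasi-likelihood test. Slc3a2, the heavy chain that carries the Slc7a11 protein to the membrane, moved as Slc7a11 did after MSNP (0.62) and was lower after HMSNP (−0.32). Chac1, which degrades glutathione and is an ATF4 target, rose after MSNP (0.65) and fell after HMSNP from 7.26 to 0.909 CPM (−2.99, adjusted p = 6.26e-09 by edgeR's test). Gstm1, a glutathione transferase, rose after MSNP (0.94). The list medians were −0.14, −0.03, −0.16 and −0.32 for SNP100, SNP50, MSNP and HMSNP. Without Control replicate 3, 5 of these 18 genes were called for SNP100 and 9 for SNP50, in fits that called 5.16% and 18.9% of all genes.

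Of 10 other thioredoxin and peroxiredoxin genes, none was called for SNP100 or SNP50, 1 rose and 2 fell after MSNP and 1 fell after HMSNP, shares near the 22.8% and 5.16% of all genes called. Txnrd3, a thioredoxin reductase best known from testis, rose after MSNP with Txnrd1 (0.90), while the peroxiredoxins Prdx2 (−0.61) and Prdx6 (−0.44) fell. Txnip, which binds and inhibits thioredoxin, fell after HMSNP (−0.35). Of 8 other genes that supply NADPH, none rose against Control, and 1, 2, 3 and 2 fell after SNP100, SNP50, MSNP and HMSNP, beside 0.403%, 0.958%, 11% and 2.7% of all genes. Pgd, the dehydrogenase of the pentose phosphate pathway next to G6pdx, fell after SNP100 (−0.34) and MSNP (−0.43). Me1 (malic enzyme) and Idh1 (cytosolic isocitrate dehydrogenase) fell after SNP50 (−0.40 and −0.33), MSNP (−0.32 and −0.51) and HMSNP (−0.58 and −0.50). Pgd was higher after HMSNP than after MSNP (0.42), as was G6pdx. For SNP100, SNP50, MSNP and HMSNP in turn, the list medians were −0.20, −0.11, −0.29 and −0.33 for the thioredoxin and peroxiredoxin genes. For the NADPH genes they were −0.18, −0.08, −0.28 and −0.13. Control libraries spread widely for several of these genes, from 409 to 813 CPM for Txn1, 81.3 to 153 for Prdx4 and 92.5 to 171 for Prdx5. Txnip (288 to 303 CPM) was tight. These medians rest on all Control libraries and are not given without Control replicate 3.

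Of 12 further NRF2 targets, 2 fell after SNP100 and after SNP50, 5 rose and 1 fell after MSNP and 1 fell after HMSNP, beside the shares of all genes called given for the glutathione list. Hmox1, the heme oxygenase whose gene is also held down by BACH1, had 1506 CPM on average in Control. It was lower in every treated group, with log2 fold changes of −1.47 for SNP100, −1.52 for SNP50, −0.68 for MSNP and −0.83 for HMSNP (edgeR's quasi-likelihood adjusted p = 0.000839, 0.00063, 0.00873 and 0.0107). Slc48a1, a heme transporter of the lysosome, fell after SNP100 (−0.69) and SNP50 (−0.71). The ferritin light chain Ftl1 (0.55) and the epoxide hydrolase Ephx1 (0.23) rose after MSNP. In the same order the list medians were −0.26, −0.19, 0.11 and −0.07. Akr1b8, like Hmox1, had all libraries of the 4 treated groups below Control, though its HMSNP value did not pass the test.

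Because Slc7a11 is a target of ATF4 as well as of NRF2, a list of Atf4 itself and 10 ATF4 targets was set beside it. After MSNP 6 of the 10 targets rose and 0 fell, where 11.8% of all genes rose. After HMSNP 0 rose and 8 fell, where 2.7% of all genes fell, and all 10 were lower after HMSNP than after MSNP, where 11% of all genes were. Atf4 rose after MSNP (0.44) and fell after HMSNP (−0.89). Ddit3, the stress factor CHOP, was 2.39 higher after MSNP and fell by 0.70 after HMSNP, and Trib3, a pseudokinase induced by ATF4, gave 1.33 and −2.71. Asns (asparagine synthetase) and Mthfd2 (mitochondrial folate metabolism) rose by 0.35 and 0.43 after MSNP and gave −0.95 each after HMSNP. Slc7a11 shared the direction of the list after MSNP, but after HMSNP its value against Control was 0.10 (interval −0.47 to 0.68). Over the 23 alternatives this HMSNP value ranged from −0.27 to 0.54 and was called in 0, with Control replicate 3 low at 56.5 CPM. For SNP100 1 target was higher and 1 lower, beside 0.509% and 0.403% of all genes. For SNP50 1 was higher and 5 lower, beside 0.454% and 0.958% of all genes. Without Control replicate 3, 6 genes of the list were called for SNP100, in a fit that called 5.16% of all genes. The list medians, with Atf4, were −0.13, −0.25, 0.35 and −0.68 for SNP100, SNP50, MSNP and HMSNP.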

How the data were processed

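RNA of 15 RAW 264.7 libraries, 3 per group, was analyzed. Poly(A) RNA was made into directional libraries by the authors and sequenced as 150-base pairs. The submitters' processing notes name cutadapt 1.16, STAR 2.7.9a, featureCounts 1.6.3 and GRCm39. The deposited table holds whole-number counts per gene and library, without normalization. The annotation and strand setting are not given in the sources used here. Groups were taken from the sample labels and doses from the methods.

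Genes with at least 10 summed counts were tested in R 4.3.3 with edgeR 4.0.16: TMM scaling, a model of group over all 15 libraries, its quasi-likelihood test, and adjustment after Benjamini-Hochberg over 19839 genes, called at an adjusted p under 0.05. Standard errors were the absolute log2 fold change over the root of F. CPM values were TMM-scaled, and levels per kb used the canonical transcript of GENCODE M39, which also gave positions and promoters (56630 of 57186 identifiers matched). The 10 genes, the other lists and the tests were chosen with earlier results of these data known. Named genes were the 10, up to 4 called genes per other list by smallest p against Control, and Nfe2l2, Keap1, Bach1 and Hmox1. Nfe2l1 and genes outside this rule were named after their values were seen. Likeness used Pearson correlation of log2 CPM with a prior count of 2. The fits were tested on simulated counts that held no trend with gene length and no outlying library, so their behavior under these was not checked. Alternatives were RLE scaling, DESeq2 1.42.0, filterByExpr, no filter, the 6 libraries of a comparison alone, a replicate block, an offset removing each library's trend with gene length (lowess span 0.3), that offset without Control replicate 3, and leaving out each library. List counts under the offset and without Control replicate 3 and the ATF4 list without Atf4 were added after seeing the data.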

Additional observations from a re-analysis of the deposited data

How the results depend on the processing

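Over 23 alternatives, 1468 of 1610 fitted values of the 10 genes kept their direction and their side of the threshold, 72 lost their call, 35 gained a call and 35 turned sign without being called. With only the 6 libraries of a comparison, 0 of the 10 genes were called for SNP100, 0 for SNP50, 2 for MSNP and 0 for HMSNP against Control, beside 2, 4, 7 and 4 with all libraries. These 6-library fits called 0%, 0.00574%, 13% and 0.439% of all genes. The length correction left 2 for HMSNP, in a fit that called 10.2% of all genes. Leaving out 1 library and changing nothing else gave 2 to 4 for SNP100, 2 to 7 for SNP50, 3 to 7 for MSNP, 0 to 5 for HMSNP and 3 to 6 for MSNP against SNP100. The highest values for SNP100 (4) and SNP50 (7) came without Control replicate 3, where 5.16% and 18.9% of all genes were called. The highest for MSNP against SNP100 (6) came without the same library, where 33.1% of all genes were called. For HMSNP the highest (5) came without Control replicate 2, where 25.2% of all genes were called. Leaving Control replicate 3 out together with the length correction gave 5, 7, 8, 4 and 6, where 6.25%, 15.6%, 32.1%, 11.3% and 34.5% of all genes were called. SNP50 had 2 without Control replicate 1 (0.968% of all genes called) or 2 (1.21%). It also had 2 without SNP50 replicate 1 (0.458%), 2 (0.499%) or 3 (0.443%). MSNP had 3 without MSNP replicate 1 (17.6% of all genes called) and 4 without replicate 2 (17.4%). HMSNP had 0 without HMSNP replicate 2 (2.51%) and 2 without HMSNP replicate 3 (2.93%) or Control replicate 1 (5.69%). MSNP against SNP100 had 3 without SNP100 replicate 3 (13.9%) or MSNP replicate 1 (13.4%) or 2 (13.6%). The cause of these shifts was not tested.

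Values that turned sign with the length correction were −0.16 for Slc7a11 (HMSNP against Control), −0.01 for Srxn1 (HMSNP against MSNP), and 0.02 for Gclm and 0.03 for Srxn1 (SNP50 against SNP100). G6pdx (SNP50 against SNP100) was 0.00 with no filter. With 1 library left out, the values that turned sign in some fit ranged in SNP100 against Control from −0.35 to 0.08 for Nqo1, −0.19 to 0.09 for Txnrd1 and −0.51 to 0.23 for Slc7a11, and in MSNP against Control from −0.42 to 0.00 for Nqo1 and −0.23 to 0.14 for Prdx1. In HMSNP against Control they ranged from −0.19 to 0.06 for Gclm, −0.32 to 0.04 for Prdx1 and −0.21 to 0.54 for Slc7a11 (−0.27 with the length correction too), and in HMSNP against MSNP from −0.04 to 0.13 for Srxn1 and −0.06 to 0.06 for Gsr. In MSNP against SNP100 they ranged from −0.26 to 0.11 for Nqo1 and −0.03 to 0.01 for G6pdx, and in SNP50 against SNP100 from −0.22 to 0.02 for Nqo1, −0.11 to 0.01 for Prdx1, −0.07 to 0.02 for Akr1b8 and −0.03 to 0.02 for G6pdx.

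Libraries of different groups with the same replicate number did not deviate together: 10 of 30 such pairs had r over 0.1, with a median of 0.02. The replicate block gave 2, 3, 7 and 3 called genes for SNP100, SNP50, MSNP and HMSNP against Control, 5 for HMSNP against MSNP, where Slc7a11 was added, 5 for MSNP against SNP100 and 0 for SNP50 against SNP100. In the same order it called 0.716%, 0.907%, 22.1%, 4.46%, 19.2%, 16.9% and 0% of all genes. RLE scaling and the length correction moved the median of all genes by at most 0.05. Over all genes, calls ranged from 0 to 1225 for SNP100, 1 to 3713 for SNP50, 2257 to 6522 for MSNP, 77 to 4940 for HMSNP, 3162 to 7142 for HMSNP against MSNP, 2629 to 7142 for MSNP against SNP100 and 0 to 191 for SNP50 against SNP100. Nqo1, with 19 to 48 counts per library, is the gene that depth limits most.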

Other observations

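The genes whose levels followed the 10 antioxidant genes most closely over the 15 libraries were not themselves glutathione or thioredoxin genes. Cd36, a scavenger receptor that takes up oxidized lipids, fell after SNP100 (log2 fold change −0.69, adjusted p = 0.000512), SNP50 (−0.94, adjusted p = 3.55e-05) and MSNP (−0.49, adjusted p = 0.000164) and rose after HMSNP (0.38, adjusted p = 0.00778), by edgeR's quasi-likelihood test. Cd44, the hyaluronan receptor, fell after SNP50 (−0.52) and rose after HMSNP (0.50), and was not called for MSNP (−0.01, adjusted p = 0.946 by edgeR's test). Odc1, the first enzyme of polyamine synthesis, fell after SNP50 (−0.43, adjusted p = 0.00713 by edgeR's test) and was called against Control in no other group. Wbp1l and Ncs1 were called in none of the 4 comparisons with Control. These genes were ranked on the same libraries in which they were tested, so their calls are a description.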
